A study of Arabidopsis thaliana with 8 samples.

Results

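The genes *BZIP60* (AT1G42990), *ATERDJ3B* (AT3G62600) and *CRT1b* (AT1G09210) are 3 genes of the endoplasmic reticulum stress response that the platform annotation names on the Affymetrix ATH1 array, each with 1 probe set (259626_at, 251182_at and 264260_at) of 22810 on the array. They were taken by name, with earlier results of these data known. All 3 passed the filter on dim signals that 14535 probe sets passed. The samples were whole *Arabidopsis thaliana* seedlings, ecotype Columbia 0, with 1 array for each of 2 biological replicates in 4 groups. The combined group had 90 minutes of heat at 38 °C, followed by 6 hours of anoxia (no oxygen) at 23 °C. The heat group had the 90 minutes at 38 °C alone, the anoxia group had the 6 hours of anoxia alone, and controls stayed untreated at 23 °C. No group had heat followed by 6 hours with oxygen. After heat, anoxia therefore cannot be told apart from the added time at 23 °C. All groups were grown for 4 days in darkness after aerobic germination, in half-strength Murashige-Skoog liquid medium with 30 mM sucrose, and the anoxic groups stood in an anaerobic chamber under nitrogen and hydrogen. Whole seedlings mix many cell types, so fewer cells of a type and less RNA per cell cannot be told apart.

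Secreted and membrane proteins fold in the endoplasmic reticulum, and when unfolded proteins build up there the cell raises its folding capacity, a reaction called the unfolded protein response. In plants bZIP60 is a membrane-bound transcription factor whose mRNA is spliced by the sensor IRE1 so that an active factor reaches the nucleus, while bZIP28 and bZIP17 are released from the membrane by proteolysis. Among the proteins made in this response are ERdj3B, a J-domain co-chaperone that hands substrates to the HSP70 chaperone BiP, and calreticulins such as CRT1b, calcium-binding lectins that retain unfinished glycoproteins. A probe set gives 1 value per gene here, so spliced and unspliced *BZIP60* mRNA are not separated.

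The arrays had median intensities of 36.8 to 53.4, and replicates correlated at 0.965 to 0.979 across probe sets. As checks of the labels, the heat-induced co-chaperone gene *Hop3* averaged 14.43 on the log2 scale in heat then anoxia, 14.18 in heat and 9.77 in anoxia, against 4.66 in controls. *PDC2*, a gene of ethanol fermentation, averaged 12.70 in heat then anoxia, 10.80 in heat and 10.59 in anoxia, against 8.80 in controls. *PDC2* does not tell the labels of heat and anoxia apart (difference 0.21, limma adjusted p = 0.593). AT1G53540 and AT4G17260, placed in the same list of checks, averaged 14.99 and 10.83 in heat then anoxia, 14.86 and 7.36 in heat, 11.31 and 9.12 in anoxia, and 2.23 and 7.76 in controls. AT4G17260 was lower in heat than in anoxia by -1.76 (limma adjusted p = 0.0102). Its rise in anoxia against control was not called (limma adjusted p = 0.0543). The array of anoxia replicate 2 and that of heat then anoxia replicate 2 stood apart in the control probe set for 25S ribosomal RNA, at 12.19 and 11.46 against 2.79 to 6.58 in the other 6 arrays. *PORB*, a protochlorophyllide reductase gene listed as a marker of dark-grown seedlings, was bright in every array. Its group means were 12.01 in heat then anoxia, 13.36 in heat, 13.52 in anoxia and 13.91 in controls. *PORB* was called lower in heat then anoxia than in controls, by -1.90 (limma adjusted p = 0.000453). *PORA*, of the same list, had no named probe set. Of the markers of root hairs, the expansin genes *EXPA7* and *EXPA18* had group means of 2.04 and 2.29 in heat then anoxia, 2.15 and 3.06 in heat and 1.93 and 2.25 in anoxia, against 5.15 and 5.98 in controls. Both were thus near background in all treated groups, and their part in the results on the 3 genes was not tested.

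*BZIP60*, the transcription factor, rose in both groups without oxygen, while its change in heat alone did not pass the test. Its log2 intensities were 10.59 and 11.36 in heat then anoxia, 9.02 and 9.17 in heat, 10.21 and 10.58 in anoxia, and 8.68 and 9.14 in controls. All 4 anoxic arrays lay above all 4 arrays of heat and controls, and the heat and control arrays overlapped. Against controls *BZIP60* rose in anoxia by a log2 fold change of 1.49 ± 0.32 (SE; 95% interval 0.74 to 2.23; limma adjusted p = 0.0249), which is 2.80-fold. In heat then anoxia it rose by 2.07 ± 0.32 (1.32 to 2.81; limma adjusted p = 0.00145), or 4.19-fold. In heat the log2 fold change was 0.19 ± 0.32, with an interval of -0.56 to 0.93 (limma adjusted p = 0.701).

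Set against the single treatments, *BZIP60* was higher in heat then anoxia than in heat by 1.88 ± 0.32 (limma adjusted p = 0.0133). Between heat then anoxia and anoxia the difference was 0.58 ± 0.32, with an interval of -0.16 to 1.33 (limma adjusted p = 0.185), although the arrays of these groups did not overlap. The gap between their nearest arrays was that of 10.59 and 10.58. *BZIP60* was lower in heat than in anoxia by a log2 fold change of -1.30 ± 0.32 (limma adjusted p = 0.0224). From the highest, the order of its levels was thus heat then anoxia, anoxia, heat and control, and only the step between anoxia and heat passed the test.

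Apart from the rise in heat then anoxia against control, which was kept when any single array was left out, the calls for *BZIP60* rested on few arrays. The rise in anoxia was not called without control replicate 1 (limma adjusted p = 0.129), control replicate 2 (0.0582) or anoxia replicate 2 (0.117), at log2 fold changes of 1.26, 1.72 and 1.30. The call against heat in heat then anoxia was lost without either heat array or without heat then anoxia replicate 2, with limma adjusted p of up to 0.0790, and the call for heat against anoxia without either heat array or without anoxia replicate 2, with limma adjusted p of up to 0.106. Replicate 2 was the higher *BZIP60* array in all 4 groups, in the 2 groups where it had the high 25S signal and in the 2 where it did not. The log2 ratio of the 3' to the 5' control probe set was also higher in replicate 2 of all 4 groups. For GAPDH it was 0.82 to 1.10 in replicate 2 against 0.64 to 0.81 in replicate 1. For actin it was 4.79 to 4.95 against 4.61 to 4.76. The part of these ratios in the *BZIP60* values was not tested. Without the 2 arrays of high 25S signal *BZIP60* was higher than in controls by 1.30 in anoxia (limma adjusted p = 0.0874) and by 1.68 in heat then anoxia (limma adjusted p = 0.0120), the lone arrays being assumed to vary like the other groups. In that fit the difference of heat then anoxia from heat was 1.49 (limma adjusted p = 0.0760) and that of heat from anoxia -1.11 (limma adjusted p = 0.0767).

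**Figure D1:**
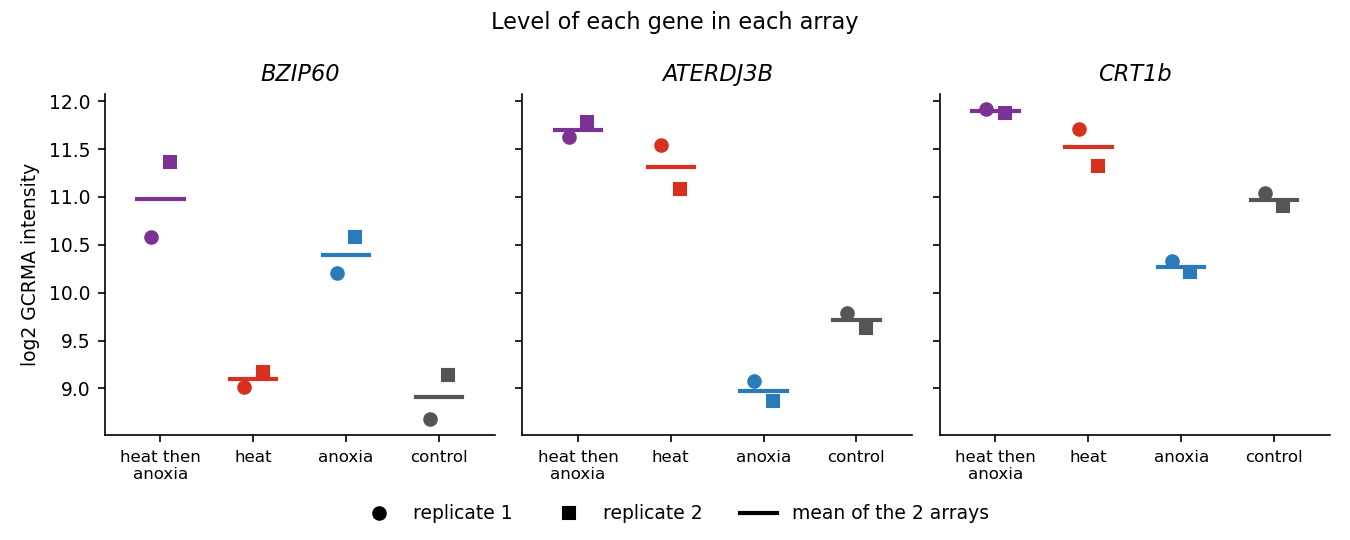
The log2 GCRMA intensity of each gene is plotted for each array, with heat then anoxia, heat, anoxia and control from left to right, circles for replicate 1, squares for replicate 2 and bars for the mean of the 2 arrays. *BZIP60* is above 10 in the 4 anoxic arrays and below 9.2 in the others, while *ATERDJ3B* and *CRT1b* are highest in the 4 heated arrays and lowest in the anoxia arrays.

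*ATERDJ3B*, the co-chaperone gene, was high wherever seedlings had been heated and lowest in anoxia alone. Its log2 intensities were 11.62 and 11.78 in heat then anoxia, 11.54 and 11.09 in heat, 9.07 and 8.87 in anoxia, and 9.79 and 9.63 in controls. The arrays of no 2 groups overlapped, and every heated array lay above every unheated one. Against controls *ATERDJ3B* rose in heat by 1.60 ± 0.25 (SE; 95% interval 1.03 to 2.17; limma adjusted p = 0.00189), or 3.03-fold, and in heat then anoxia by 1.99 ± 0.25 (1.42 to 2.56; limma adjusted p = 0.000470), or 3.98-fold. In anoxia it stood at -0.74 ± 0.25 (-1.31 to -0.17), which did not pass (limma adjusted p = 0.108; unadjusted p = 0.0173).

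Among seedlings without oxygen, *ATERDJ3B* differed widely between those with and without preceding heat. It was higher in heat then anoxia than in anoxia by 2.73 ± 0.25 (limma adjusted p = 0.000181), or 6.64-fold, and higher in heat than in anoxia by 2.34 ± 0.25 (limma adjusted p = 0.000395), or 5.06-fold. Between heat then anoxia and heat the difference was 0.39 ± 0.25, with an interval of -0.18 to 0.96 (limma adjusted p = 0.350). From the highest, the order of its levels was heat then anoxia, heat, control and anoxia, and of these steps the one between heat and control was called. All 4 of its calls were kept when any single array was left out.

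*CRT1b*, the calreticulin gene, followed the same order of groups, with a smaller step between heat and control (0.55 against 1.60 for *ATERDJ3B*). Its other steps were close to those of *ATERDJ3B*, at 0.38 against 0.39 and 0.70 against 0.74. Its log2 intensities were 11.92 and 11.88 in heat then anoxia, 11.71 and 11.32 in heat, 10.33 and 10.21 in anoxia, and 11.04 and 10.90 in controls. Here too no 2 groups overlapped. Against controls *CRT1b* stood at 0.55 ± 0.23 in heat (SE; 95% interval 0.01 to 1.08; limma adjusted p = 0.108) and at -0.70 ± 0.23 in anoxia (-1.23 to -0.17; limma adjusted p = 0.105), neither of which passed. In heat then anoxia it stood at 0.93 ± 0.23 (0.39 to 1.46), with a limma adjusted p of 0.0123 and a fold of 1.90 that is under the 2-fold limit of a call. It was called there, at 1.08, when each array was centred on its median.

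Anoxia with and without preceding heat gave the widest contrast for *CRT1b*. It was higher in heat then anoxia than in anoxia by 1.63 ± 0.23 (limma adjusted p = 0.00160), or 3.09-fold, and higher in heat than in anoxia by 1.25 ± 0.23 (limma adjusted p = 0.00621), or 2.37-fold. The difference between heat and anoxia was 1.19, with a limma adjusted p of 0.0575, without the 2 arrays with a high 25S signal. Between heat then anoxia and heat the difference was 0.38 ± 0.23 (-0.15 to 0.91; limma adjusted p = 0.334), and no step between neighbours in its order of levels was called.

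Counted over the 3 genes, 2 were called higher in heat then anoxia against control, where calls took 15.2% of the tested probe sets upward and 40.5% in either direction. In heat against control 1 of 3 was called higher, beside 10.5% upward and 28.4% in either direction on the whole array. In anoxia against control it was 1 of 3, beside 3.95% upward and 9.87% in either direction. In heat then anoxia against anoxia 2 of 3 were called higher, beside 12.8% upward and 29.9% in either direction. Against heat 1 of 3 was called higher in heat then anoxia, beside 5.13% upward and 9.8% in either direction. In heat against anoxia 2 of 3 were higher, beside 9.46% upward, and 1 of 3 was lower, beside 12% downward (21.4% in either direction). The 3 genes were chosen with earlier results of these data known, so these shares are a background and not a test of the counts. Comparisons with the same controls share their noise. Over the tested probe sets, the median log2 change stood at -0.33 in heat then anoxia, -0.22 in heat and -0.01 in anoxia against control.

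**Figure D2:**
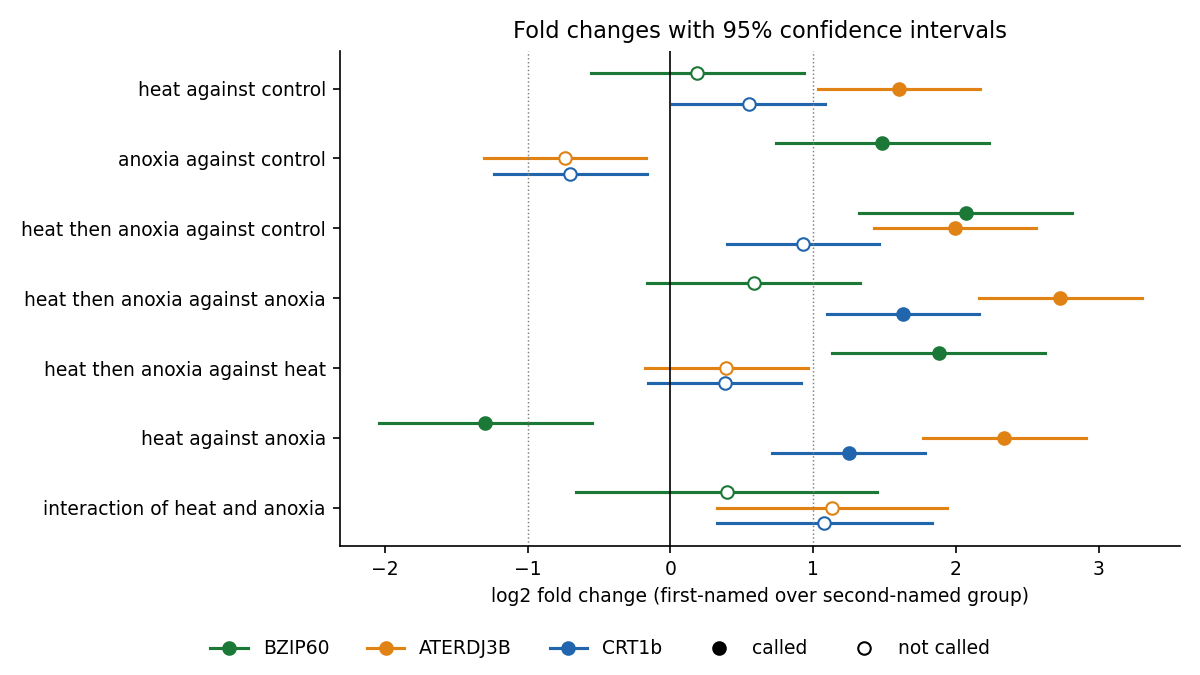
Log2 fold changes of the 3 genes in 7 comparisons are plotted with 95% confidence intervals from limma, and filled points mark calls, which need an adjusted p below 0.05 and a 2-fold change (dotted lines). *BZIP60* is called in anoxia against control (1.49) and in heat then anoxia against heat (1.88). *ATERDJ3B* is called in heat against control (1.60) and in heat then anoxia against anoxia (2.73). Both are also called in heat then anoxia against control (2.07 and 1.99) and, in opposite directions, in heat against anoxia (-1.30 and 2.34).

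The transcription factor and the chaperone genes were set against each other by the log2 ratio of 2 genes within an array, which does not move with the scaling of the array. The level of such a ratio depends on the probes and is not read, only its change with a treatment. In heated seedlings the change with anoxia includes that with the time after heat. The ratio of *ATERDJ3B* to *BZIP60* was 1.04 and 0.42 in replicates 1 and 2 of heat then anoxia, 2.52 and 1.92 in heat, -1.13 and -1.71 in anoxia, and 1.12 and 0.49 in controls. The heat then anoxia and control arrays thus overlapped, with heat above them and anoxia below. Replicate 1 was the higher in all 4 groups, by 0.58 to 0.62. Averaged over seedlings with and without heat, anoxia moved this ratio by -1.86, and heat moved it by 1.78 averaged over seedlings with and without anoxia, where the SD between replicate arrays, that offset included, was 0.427.

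For *CRT1b* over *BZIP60* the effect of anoxia was -1.84 and that of heat 0.70 (SD between replicate arrays 0.440), and replicate 1 was again the higher in all 4 groups, by 0.49 to 0.82. For *CRT1b* over *ATERDJ3B* heat moved the ratio by -1.08, with a range of 0.09 to 0.29 in the 4 heated arrays against 1.25 to 1.34 in the 4 unheated ones. The heated and unheated arrays did not overlap, and the shift with heat was -1.10 in seedlings with anoxia and -1.05 in those without it. Anoxia moved that ratio by 0.01, less than the SD between replicate arrays of 0.0808. Two-sided exact permutation tests within the strata of the other treatment gave p = 0.0556 for 4 of the 6 effects, which is the smallest p that 36 arrangements allow. Exact tests gave p = 0.111 for the effect of heat on *CRT1b* over *BZIP60* and p = 0.889 for the effect of anoxia on *CRT1b* over *ATERDJ3B*. After Benjamini-Hochberg adjustment over the 6 exact tests these values were 0.0833, 0.133 and 0.889, and the design cannot pass 0.05.

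**Figure D3:**
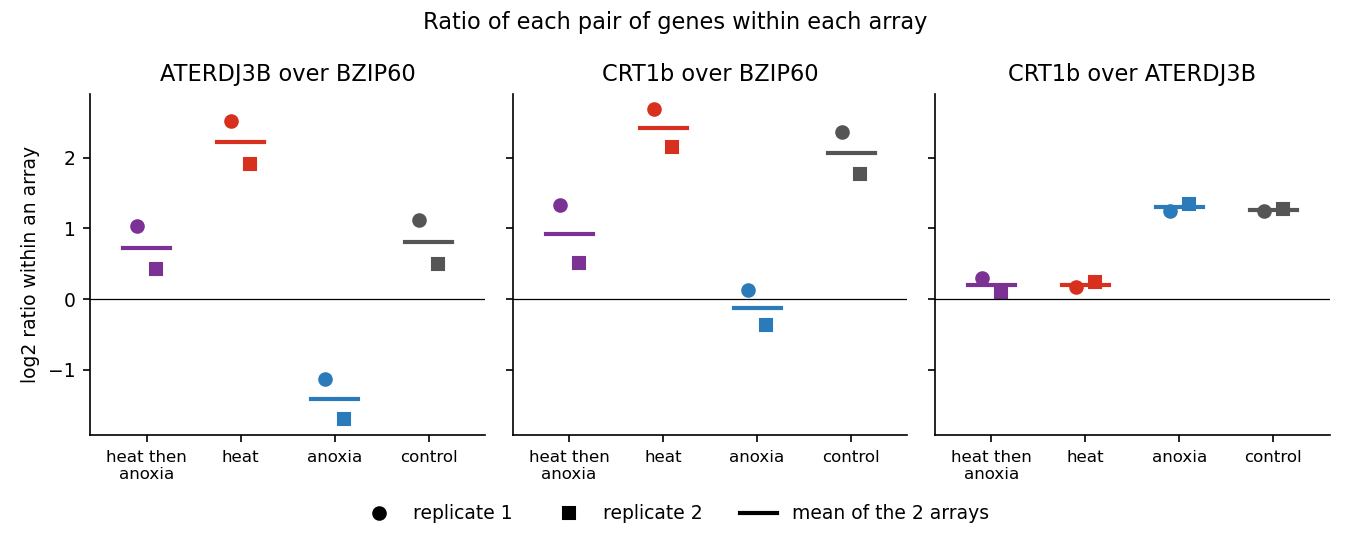
The log2 ratio of each pair of genes within an array is plotted, with heat then anoxia, heat, anoxia and control from left to right and bars for the mean of the 2 arrays. *ATERDJ3B* over *BZIP60* is highest in heat (2.22) and lowest in anoxia (-1.42), and *CRT1b* over *ATERDJ3B* falls into a heated level of 0.09 to 0.29 and an unheated level of 1.25 to 1.34.

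The combined treatment was also compared with the sum of the single ones. For *BZIP60* the log2 fold change in heat then anoxia was 2.07, against a sum of 1.67 for heat and anoxia alone. For *ATERDJ3B* it was 1.99 against a sum of 0.86, and for *CRT1b* 0.93 against -0.15. Anoxia went with 0.39 for *ATERDJ3B* and 0.38 for *CRT1b* in heated seedlings, and with -0.74 and -0.70 in unheated ones. The values in heated seedlings, and so the interaction, cannot be separated from the 6 hours that passed after heat. The interaction was 1.13 ± 0.35 for *ATERDJ3B* (95% interval 0.33 to 1.94; limma adjusted p = 0.101), 1.08 ± 0.33 for *CRT1b* (0.33 to 1.83; limma adjusted p = 0.0963) and 0.40 ± 0.46 for *BZIP60* (-0.66 to 1.45; limma adjusted p = 0.654). None of the 3 was called by limma, at unadjusted p of 0.0120, 0.0110 and 0.411, where positive interactions were called for 3.73%, negative ones for 2.45% and either sign for 6.18% of the tested probe sets.

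Other genes of endoplasmic reticulum folding and stress came from 5 lists of 65 loci, of which 21 were named by the tables and 18 passed the filter, the 3 genes above included. BiP, the protein disulfide isomerases other than *PDIL5-1* and the IRE1 sensors are not analysed here for want of a named probe set. AT4G20310, AT1G73570 and *SEC31A* did not exceed 3.04 in any array and were not tested. Of the other 15 genes 6 were called higher and 0 lower in heat then anoxia against control, where the whole array had 15.2% upward and 25.4% downward. In heat 5 were called higher and 0 lower, beside 10.5% upward and 17.9% downward, and in anoxia 0 were called higher and 1 lower, beside 3.95% upward and 5.92% downward. In heat then anoxia 7 were higher and 0 lower than in anoxia (12.8% upward and 17.2% downward), and in heat 6 were higher and 0 lower than in anoxia (9.46% upward and 12% downward). The lists were written with earlier results of these data known, so the shares do not test these counts. Single arrays decided part of these counts. Without heat replicate 2, 3 of the 6 calls of heat against anoxia were kept, and without heat replicate 1 or anoxia replicate 2, 4 of 6. Without heat replicate 1 or control replicate 2, 3 of the 5 calls of heat against control were kept. Without control replicate 2 or heat then anoxia replicate 1, 4 of the 6 calls of heat then anoxia against control were kept. The 15 genes had a median change of 0.41 in heat then anoxia, 0.72 in heat and -0.43 in anoxia against control, beside array-wide medians of -0.33, -0.22 and -0.01. Their median interaction was 0.47, beside -0.04 array-wide. By limma 0 of the 15 interactions were called, beside 6.18% on the whole array, and 1 had an unadjusted p below 0.05. The furthest were *OS9* (1.21), *BZIP17* (0.76) and AT1G29310 (0.75), which was placed in the list of degradation and translocation.

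Among the other sensors and transcription factors, *BZIP28* was high in all 4 heated arrays. Its log2 intensities were 10.97 and 11.14 in heat then anoxia, 10.90 and 10.68 in heat, 8.03 and 8.65 in anoxia, and 8.36 and 8.37 in controls. It rose by 2.69 ± 0.27 in heat then anoxia and by 2.42 ± 0.27 in heat (limma adjusted p = 0.000160 and 0.000358), while the anoxia and control arrays overlapped (-0.03). *BZIP17* read 7.77 and 7.14 in heat then anoxia, 8.19 and 8.04 in heat, 5.67 and 5.57 in anoxia, and 7.27 and 6.82 in controls. The anoxia arrays were the lowest, and the heat then anoxia and control arrays overlapped. *BZIP17* was higher in heat by 1.07 ± 0.29 (limma adjusted p = 0.0232) and lower in anoxia by -1.43 ± 0.29 (limma adjusted p = 0.0185), but these calls did not outlast every omission. The call in heat was lost without either heat array or control replicate 2 (limma adjusted p up to 0.130), and that in anoxia without either anoxia array or control replicate 1 (up to 0.102). *S1P*, the protease that cuts the membrane-bound factors, stood at -0.08, -0.05 and -0.15 in heat then anoxia, heat and anoxia.

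The list of degradation and translocation held 8 of the 15 genes. Against control 5 of the 8 were called higher in heat then anoxia, 3 in heat and 0 in anoxia. The whole array had 15.2%, 10.5% and 3.95% upward in these comparisons. *DER1*, of the derlin family that helps to pass such proteins out of the endoplasmic reticulum, read 12.49 and 12.72 in heat then anoxia, 12.58 and 12.82 in heat, 8.01 and 8.15 in anoxia, and 8.19 and 7.75 in controls. All 4 heated arrays were far above the rest, and *DER1* rose by 4.63 ± 0.25 in heat then anoxia and 4.73 ± 0.25 in heat (limma adjusted p = 8.84e-06 and 8.48e-06). A second probe set named for *DER1* had group means of 2.73 in heat then anoxia, 2.84 in heat, 2.61 in anoxia and 2.58 in controls, near background, and did not show this change, so that the assignment of these values to *DER1* is uncertain. The counts of calls in heat then anoxia and in heat include *DER1*. *DER2.1* rose by 1.92 ± 0.22 in heat then anoxia and 1.62 ± 0.22 in heat (limma adjusted p = 0.000366 and 0.00113), while *DER2.2* stood at -0.07, -0.72 and 0.18 in heat then anoxia, heat and anoxia.

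AT3G60540, placed in the list of degradation and translocation, rose by 1.78 in heat then anoxia (limma adjusted p = 0.00427). In heat it was called at 1.13 (limma adjusted p = 0.0402), a call lost without either control array, either anoxia array or heat replicate 1 (limma adjusted p up to 0.223). The lectin gene *OS9* and the ubiquitin-conjugating enzyme gene *UBC32*, both of this degradation route, rose in heat then anoxia by 1.39 and 1.34 (limma adjusted p = 0.0159 and 0.0107). In heat alone they stood at 0.72 and 0.97 (limma adjusted p = 0.173 and 0.0521), neither of which was called. With 1 array left out, the rises in heat then anoxia ranged from 0.97 to 1.80 for *OS9* and from 0.86 to 1.83 for *UBC32*. The call for *OS9* was lost without control replicate 2 or either heat then anoxia array, and that for *UBC32* without control replicate 2 or heat then anoxia replicate 1.

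Of the other chaperones and folding enzymes, 0 of 4 were called against control by limma in heat then anoxia, in heat or in anoxia, where 2, 1 and 2 of them had an unadjusted p below 0.05 and 40.5%, 28.4% and 9.87% of the tested probe sets were called in either direction. *ATERDJ2A* and *ATERDJ2B*, J-domain proteins of the translocation pore, stood at -0.72 and 0.20 in heat then anoxia and at -0.51 and 0.29 in heat, and the disulfide isomerase gene *PDIL5-1* at -0.79 and -0.51. In anoxia *PDIL5-1* stood at -0.95 and *ATERDJ2A* at -0.75, so that both were below 0 there as *ATERDJ3B* and *CRT1b* were, and none of these was called. *PDIL5-1* passed the adjusted p there (limma adjusted p = 0.0417) and missed only the 2-fold limit of a call. In heat then anoxia the same held for *ATERDJ2A* and *PDIL5-1* (limma adjusted p = 0.0288 and 0.0255). AT5G07340, placed in the calnexin and calreticulin list, stood at 0.61 in heat then anoxia, 0.86 in heat and -0.45 in anoxia against control. In heat it passed the adjusted p (limma adjusted p = 0.0470) but not the 2-fold limit. AT5G07340 was higher by 1.06 in heat then anoxia and by 1.31 in heat than in anoxia (limma adjusted p = 0.0212 and 0.0117). These calls were lost without anoxia replicate 2 or without either array of the heated group in the comparison. Against heat, 0 of the 15 genes were called in heat then anoxia by limma, where the furthest were *OS9* (0.66), *BZIP17* (-0.66) and AT3G60540 (0.65), and 1 of the 15 had an unadjusted p below 0.05. With *BZIP60* this made 1 called gene of the 18 tested, beside 5.13% upward and 9.8% in either direction on the whole array. Without the 2 arrays of high 25S signal 10 calls of these genes were lost, some with the change as large as before. *OS9* and *UBC32* stood at 1.43 and 1.40 in heat then anoxia against control (limma adjusted p = 0.0556 and 0.0562), AT3G60540 at 1.13 in heat against control (0.0634), and *BZIP17* at -1.38 in anoxia against control (0.0761). In heat then anoxia against anoxia the lost calls were *OS9* at 1.64 (limma adjusted p = 0.0792), AT3G60540 at 1.40 (0.108) and AT5G07340 at 0.62 (0.244), which left 4 of 7. In heat against anoxia they were *DER2.1* at 1.19 (limma adjusted p = 0.0520), *OS9* at 0.94 (0.223) and AT5G07340 at 1.01 (0.0819), which left 3 of 6.

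**Figure D4:**
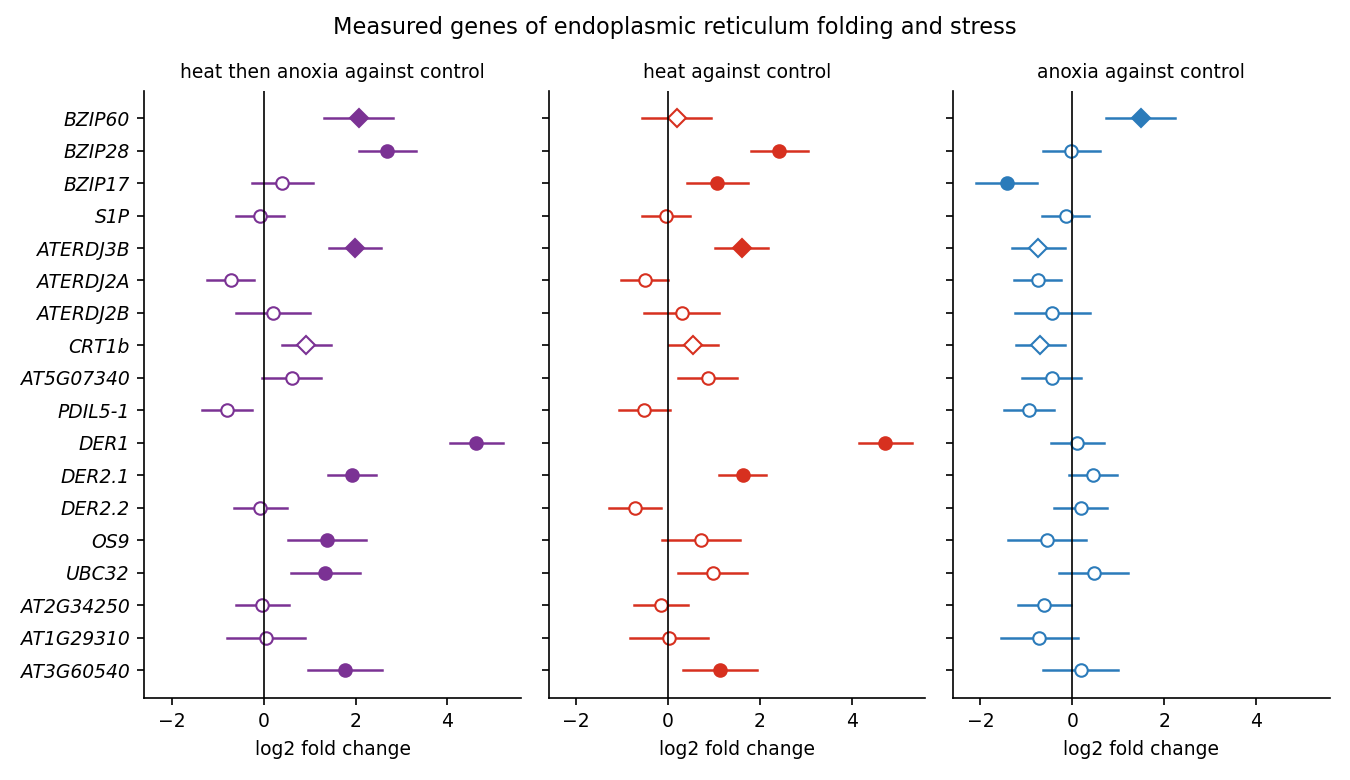
Log2 fold changes against control of the 18 measured genes of endoplasmic reticulum folding and stress are plotted for heat then anoxia, heat and anoxia, with 95% confidence intervals from limma. Filled points are called, diamonds are *BZIP60*, *ATERDJ3B* and *CRT1b*, and in anoxia the called points are *BZIP60* (1.49) and *BZIP17* (-1.43).

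The genes whose pattern over the 8 arrays was most like each gene were taken by Pearson correlation of log2 values among 4134 candidate probe sets. Arrays fall into 4 groups and share their scaling, so these values are descriptions. *ATERDJ3B* and *CRT1b* correlated with each other at 0.975, and *BZIP60* with them at 0.15 and 0.09. By this measure *CRT1b* ranked 40 among the candidates for *ATERDJ3B*, and *ATERDJ3B* ranked 11 among those for *CRT1b*. The closest genes to *BZIP60* were AT1G23710 (0.975), AT1G18030 (0.972), AT2G04050 (0.970), AT1G68620 (0.969) and AT1G66760 (0.968). AT1G23710 averaged 9.86 in heat then anoxia, 4.46 in heat, 8.90 in anoxia and 4.88 in controls.

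The closest genes to *ATERDJ3B* were AT4G36010 (0.995), AT2G30160 (0.991), AT4G27350 (0.990), AT4G12690 (0.989) and AT3G26950 (0.988). For *CRT1b* they were AT4G00090 (0.988), AT3G18170 (0.988), AT3G26700 (0.985), AT4G36010 (0.985) and AT5G16380 (0.985). AT4G36010, which stands in the sets of both chaperone genes, averaged 13.64 in heat then anoxia, 12.02 in heat, 5.82 in anoxia and 8.18 in controls. All 8 other genes of these sets were highest in the heated groups, with anoxia below control, a likeness that follows from how they were chosen.

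**Figure D5:**
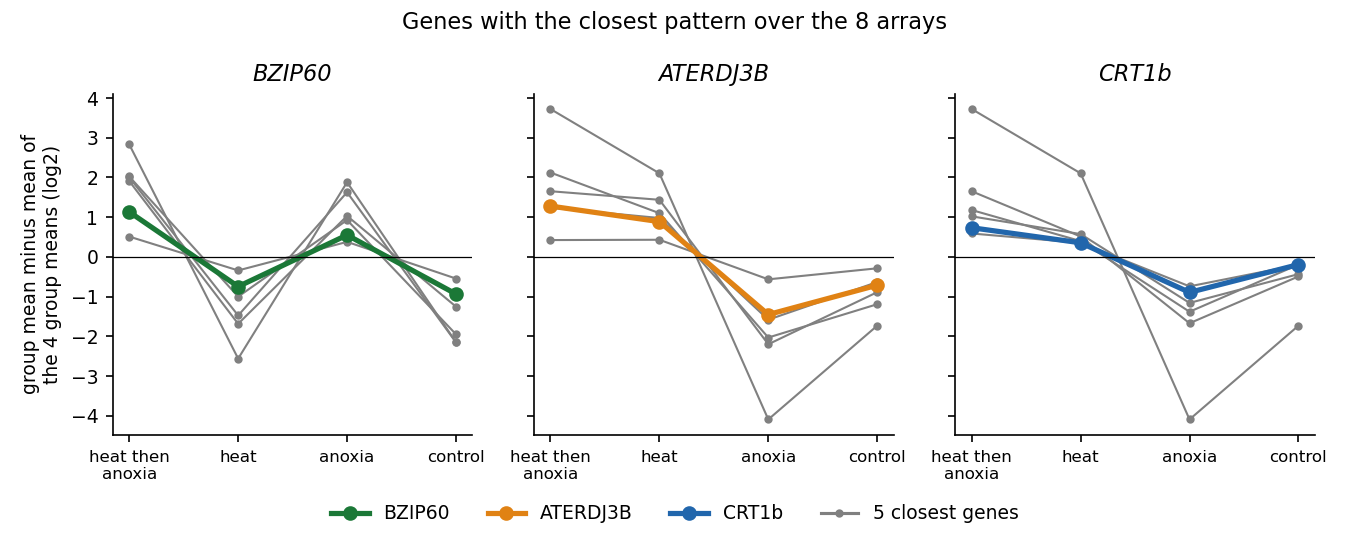
Group means of each gene (thick line) and of the 5 genes closest to it (grey) are plotted as the difference from the mean of the 4 group means, on the log2 scale. *BZIP60* and its closest genes peak in the anoxic groups, and *ATERDJ3B*, *CRT1b* and theirs are high in the heated groups and lowest in anoxia.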

How the data were processed

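The deposited values are GCRMA intensity values on a linear scale, 1 per probe set and array, per the labels and the submitters' processing notes, which name no version. GCRMA models background from probe sequence, so folds of dim probe sets depend on that model. The log2 was taken with no further normalization. With 64 array controls set aside, a probe set was tested if its log2 reached 4 on 2 or more arrays (14535 of 22746). All 8 arrays entered 1 limma model of 4 group means (version 3.58.1, R 4.3.3, empirical Bayes, 4 residual degrees of freedom). A call needs a Benjamini-Hochberg adjusted p below 0.05 over all tested probe sets and a change of 2-fold or more. The number of arrays limits the precision.

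Gene names are those of GEO's platform annotation, updated through a RefSeq table. These pair 13513 probe sets with 1 gene, 503 with several and 8730 with none. Where a gene had more than 1 probe set, the brightest on average stood for it. Genes named were the 3 members, listed genes that were called or among the 3 furthest changes of a comparison, the check genes, and the 5 closest genes to each member among probe sets of 1 gene whose group means had an SD of 0.5 or more. *S1P*, *DER2.2* and *ATERDJ2B* were added after their values were seen. Members and lists were chosen with earlier results of these data known. In simulated heat against control data (14535 probe sets, 50 changed per size), calls recovered 14% at log2 1, 64% at 2, 88% at 3 and 90% at 4, with 5 false calls. The simulation changed a far smaller share of probe sets than the 28.4% called in the real comparison. Its adjusted p was therefore stricter, and these rates need not hold for the real fit. A change of log2 1 also lies at the 2-fold limit of a call. Alternatives were other filters, priors, normalizations and call rules, fits on the compared groups alone, a replicate block, and each array left out. The omission of both arrays of high 25S signal was added after seeing the data.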

Additional observations from a re-analysis of the deposited data

Results flagged for a closer look

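The control probe set for 25S ribosomal RNA, which enters no comparison, read 11.46 on the log2 scale in heat then anoxia replicate 2 and 12.19 in anoxia replicate 2, against 2.79 and 6.20 in the 2 control arrays. It was listed because it lay more than 2-fold above the higher control. The other replicates of these groups read 4.47 and 4.60. Its part in the *BZIP60* values was not tested beyond leaving these arrays out.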

How the results depend on the processing

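With 2 arrays a group, single arrays decide several calls. Of 396 recomputed values for the 3 genes, 376 kept direction and call. The *BZIP60* change in anoxia against control was 1.49 with no filter (limma adjusted p = 0.0546) and 1.49 at the stricter adjusted p of 0.01, and no longer called in either. The stricter p also ended its calls in heat then anoxia against heat (1.88) and heat against anoxia (-1.30). Without the 2 arrays of high 25S signal these 3 changes were 1.30, 1.49 and -1.11 and *CRT1b* in heat against anoxia was 1.19, none called. Median centring (1.08) or no fold threshold (0.93) made *CRT1b* a call in heat then anoxia against control. Leaving out each array gave *BZIP60* ranges of 1.26 to 1.72 in anoxia against control, 1.49 to 2.27 in heat then anoxia against heat, -1.48 to -1.11 in heat against anoxia and -0.0426 to 0.417 in heat against control, where it turned sign without control replicate 1. The effect of anoxia on *CRT1b* over *ATERDJ3B*, near 0, ranged from -0.0363 to 0.0633 and turned sign without heat replicate 1 (-0.00247), anoxia replicate 2 (-0.00873) or heat then anoxia replicate 1 (-0.0363).

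Counts of called probe sets also moved. Anoxia against control had 1434, against 938 with only the compared groups fitted, 699 without the high 25S arrays, 667 at an adjusted p of 0.01 and 851 to 1320 with each array left out. Heat then anoxia against heat had 1424, against 761 with no filter, 441 without the high 25S arrays, 343 at 0.01 and 372 to 1571 with each array left out. The interaction had 898, against 227, 226 and 351 to 1043 without the high 25S arrays, at 0.01 and with each array left out. At 0.01 heat then anoxia against anoxia had 2681 of 4350 and heat against anoxia 1934 of 3114. A stricter threshold gives fewer calls by construction, and the other causes were not tested. Same-numbered arrays of different groups deviated together at correlations of 0.0223 to 0.298, all positive. The main fit and the exact tests did not take the numbers as pairs, so any offset shared by same-numbered arrays stays in their spread. With replicate number as a block the interaction had 1376 calls, and the block changed no call of the 3 genes. In the ratios to *BZIP60* replicate 1 was the higher in all 4 groups, and with replicate as a block, chosen after seeing the data, the SD between replicate arrays was 0.0144 for *ATERDJ3B* (0.427 without) and 0.103 for *CRT1b* (0.440 without).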
